A study of Rattus norvegicus with 4 samples.

Results

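The genes described here are 48 markers of cell division, chosen by name for their known work in DNA synthesis, mitosis or cytokinesis. Of these, 44 had a probe set of their own on a rat expression array that named 14217 genes, and each was read through its brightest probe set over the 4 arrays. Rrm2 and Anln were represented only by probe sets that also carry another gene's symbol, Ndc80 and Tpx2 by no named probe set, and these 4 were not analysed here. The cells were primary granulosa cells, the somatic cells that surround the oocyte and make estradiol, from female Sprague-Dawley rats aged 23 to 25 days that had been given estradiol. They were kept in medium without serum, exposed to an adenovirus for 4 h, washed, and cultured for another 24 h. The group called GFP vehicle carried a virus for green fluorescent protein and received vehicle, and GFP FSH carried the same virus and received follicle-stimulating hormone (FSH) at 100 ng/ml. FOXOA3 FSH received FSH and a virus for FOXO1, a transcription factor, in a form that stays active, and FOXOA3-mDBD FSH received FSH and the DNA-binding mutant of that form. All groups were thus infected with an adenovirus, and no uninfected cells and no FOXO1 virus without FSH were among the groups. Each group had 1 array, and whether its cells came from several animals is not stated in the labels. No difference below has a replicate check, and no p-value was computed.

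Cell division genes are switched on in waves. Early in the cycle, cyclin E and its kinase inactivate the retinoblastoma protein, which frees E2F factors to transcribe the genes of DNA replication. Genes of mitosis follow, many of them through promoters with CCAAT boxes bound by NF-Y and a cell cycle homology region (CHR) bound by the MuvB complex. Granulosa cells divide as the follicle grows, under FSH and estradiol. FSH also leads, through the kinase AKT, to phosphorylation of FOXO1 and its removal from the nucleus, and active FOXO1 is known to restrain division in many cell types.

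Promoter sequences of 8 members are printed first, to show where the letters of these elements do and do not occur. The first set are members at least 2-fold below GFP FSH on both FOXO1 arrays: Pclaf (a clamp-associated factor), Bub1b (a spindle checkpoint kinase), Cdk1 (the mitotic kinase), Ccnb2 (cyclin B2) and Mcm7 (a helicase subunit). The second set are members that were brightest on FOXOA3-mDBD FSH: Mcm6 (another helicase subunit), Rrm1 (the large subunit of ribonucleotide reductase) and Parpbp (a PARP1-binding repair factor). Each line gives the 250 bases before the gene start, 5′ to 3′ on the gene's strand, from RefSeq on the rat build GRCr8. Capitals mark matches, on either strand, to CCAAT (NF-Y), TTTGAA or TTTAAA (CHR), TTCCCGC or TTGGCGC (E2F) and TGTTTAC (FOXO). The windows lie at chr8:75315467-75315716 on the plus strand for Pclaf, chr3:126016817-126017066 on the plus strand for Bub1b and chr20:19265043-19265292 on the plus strand for Cdk1. Those of Ccnb2 and Mcm7 lie at chr8:79981659-79981908 on the minus strand and chr12:22163179-22163428 on the minus strand. For Mcm6 the window is chr13:42404353-42404602 on the minus strand, for Rrm1 chr1:166235654-166235903 on the plus strand, and for Parpbp chr7:24461157-24461406 on the minus strand.
Pclaf: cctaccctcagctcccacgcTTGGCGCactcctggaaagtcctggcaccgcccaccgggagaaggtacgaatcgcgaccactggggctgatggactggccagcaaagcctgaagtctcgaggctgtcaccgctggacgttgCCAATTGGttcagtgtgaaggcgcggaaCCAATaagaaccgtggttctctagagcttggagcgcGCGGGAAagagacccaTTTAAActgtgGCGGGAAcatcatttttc
Bub1b: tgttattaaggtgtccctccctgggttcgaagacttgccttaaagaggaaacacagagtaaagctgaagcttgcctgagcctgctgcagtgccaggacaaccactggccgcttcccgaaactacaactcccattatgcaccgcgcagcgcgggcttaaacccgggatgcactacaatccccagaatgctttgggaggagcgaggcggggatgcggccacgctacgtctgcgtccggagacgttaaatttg
Cdk1: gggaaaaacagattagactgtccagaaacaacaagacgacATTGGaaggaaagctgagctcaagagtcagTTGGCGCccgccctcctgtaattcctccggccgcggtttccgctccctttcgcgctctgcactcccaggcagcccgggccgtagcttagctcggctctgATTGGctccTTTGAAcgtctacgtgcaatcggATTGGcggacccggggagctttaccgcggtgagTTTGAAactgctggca
Ccnb2: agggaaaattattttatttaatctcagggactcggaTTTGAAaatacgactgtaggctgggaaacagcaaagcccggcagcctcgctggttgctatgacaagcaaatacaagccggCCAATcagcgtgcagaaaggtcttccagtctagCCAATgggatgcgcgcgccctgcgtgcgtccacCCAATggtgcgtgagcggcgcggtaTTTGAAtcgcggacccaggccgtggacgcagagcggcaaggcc
Mcm7: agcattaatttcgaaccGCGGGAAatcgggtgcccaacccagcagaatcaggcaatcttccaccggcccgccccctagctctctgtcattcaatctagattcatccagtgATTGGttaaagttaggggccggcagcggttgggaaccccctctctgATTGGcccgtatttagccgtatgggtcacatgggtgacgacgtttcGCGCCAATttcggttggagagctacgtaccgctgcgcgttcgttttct
Mcm6: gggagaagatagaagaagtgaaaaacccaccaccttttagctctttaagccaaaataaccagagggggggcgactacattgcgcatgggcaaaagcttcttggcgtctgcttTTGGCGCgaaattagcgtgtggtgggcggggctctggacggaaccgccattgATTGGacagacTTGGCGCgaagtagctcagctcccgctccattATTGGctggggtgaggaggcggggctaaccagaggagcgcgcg
Rrm1: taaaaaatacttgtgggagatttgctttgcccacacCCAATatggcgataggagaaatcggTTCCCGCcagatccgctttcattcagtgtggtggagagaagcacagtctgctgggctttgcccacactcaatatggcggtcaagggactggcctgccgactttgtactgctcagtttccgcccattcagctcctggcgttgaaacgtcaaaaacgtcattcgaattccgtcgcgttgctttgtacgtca
Parpbp: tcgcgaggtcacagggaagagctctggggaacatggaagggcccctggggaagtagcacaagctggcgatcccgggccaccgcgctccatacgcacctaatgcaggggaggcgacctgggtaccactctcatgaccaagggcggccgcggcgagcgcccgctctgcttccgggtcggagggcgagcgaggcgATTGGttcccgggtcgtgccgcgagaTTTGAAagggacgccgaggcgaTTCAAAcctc

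Pclaf held 3 NF-Y matches, of which a pair overlap on opposite strands, 3 E2F matches and 1 CHR match. Cdk1 held 3 NF-Y matches, 2 CHR matches and 1 E2F match, and Ccnb2 held 3 NF-Y and 2 CHR matches. Mcm7 and Mcm6 each held 2 E2F matches, with 3 and 2 NF-Y matches and no CHR match. In Mcm7, 1 E2F match overlaps an NF-Y match. Rrm1 held 1 NF-Y and 1 E2F match, Parpbp 1 NF-Y and 2 CHR matches, and Bub1b held none of these letters in the window. Windows were found for 37 of the 44 members. No entry was found for Aurkb, Ccna2, E2f1, Mcm4, Pbk, Racgap1 and Ube2c.

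An NF-Y match lay in 29 of the 37 windows (78.4%), against 35.1% of 11733 windows of genes named on the array and 34.0% of all 33469 windows. At least 2 NF-Y matches were found in 19 (51.4%), against 11.5% of the windows of array genes. CHR letters were in 25 of the 37 (67.6%), against 17.9% of array genes and 25.4% of all. For E2F the count was 10 of 37 (27.0%), against 8.95% and 5.00%. The FOXO letters were in 1 window, that of Top2a (2.70%), against 2.16% and 3.21%. Members 2-fold lower on both FOXO1 arrays had an NF-Y match in 16 of 21 windows (76.2%), and the other members in 13 of 16 (81.25%). In the same order, CHR letters were in 71.4% and 62.5%, and E2F letters in 28.6% and 25.0%. At least 2 NF-Y matches were in 66.7% and 31.25%. Whether the motifs go with the response was not tested. A match is a string of letters and says nothing on whether a factor was bound in these cells.

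**Figure D1:**
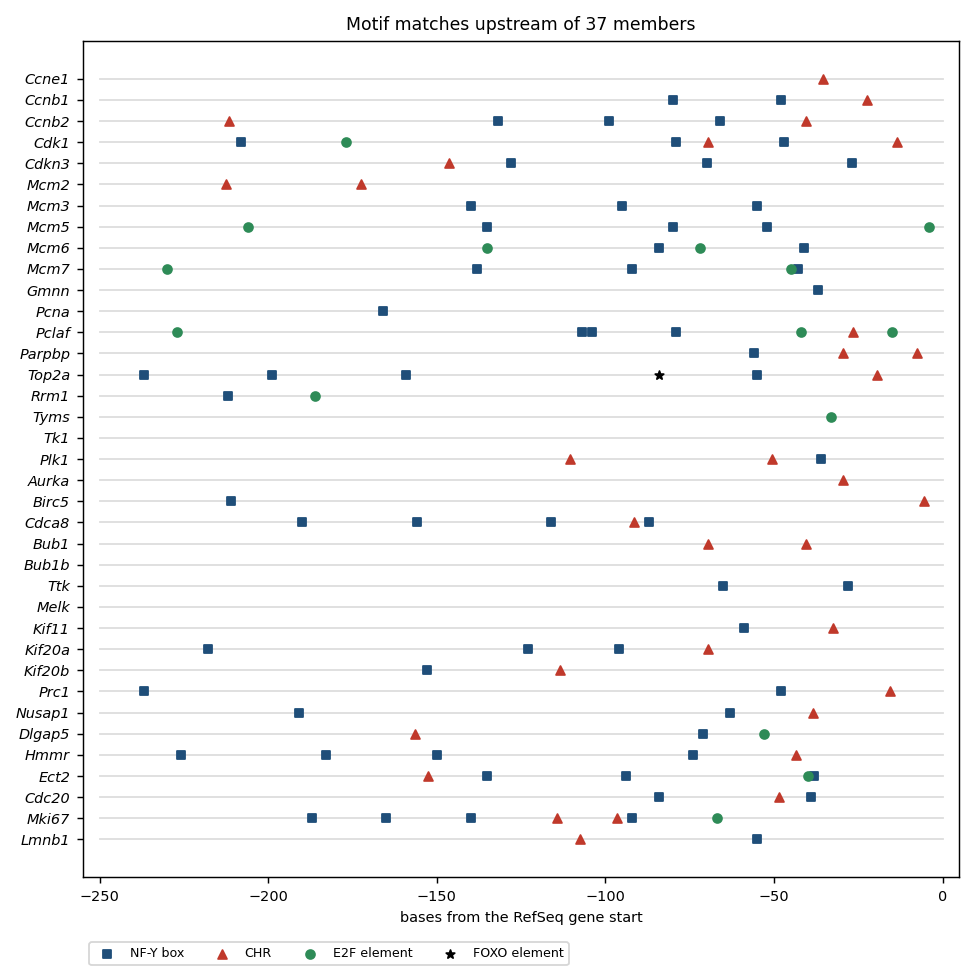
Positions of motif matches in the 250 bases before the RefSeq gene start, with distance from the start in bases on the horizontal axis and the 37 members with a window on the vertical axis. Squares stand for NF-Y, triangles for CHR, circles for E2F and the star for FOXO; 29 windows hold at least 1 square, and the single star is in Top2a.

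The signals are MAS5 values, in arbitrary units, scaled so that the 2% trimmed mean of each array was about 500 (500.1 to 500.2). Signals of different genes cannot be set against each other, because probe sets differ in brightness. A floor of 100.5, the median of all signals, stood for background, and ratios were taken after raising lower signals to it. Ratios against a signal at the floor are lower bounds and are written "at least". A gene was counted as higher or lower at 2-fold or more, which is a cut-off of size and not a test. All 44 members were above the floor on at least 1 of the arrays in every comparison, and 39 on all 4. The 5 others are Parpbp, Bub1b and Kif20b, at or under the floor on FOXOA3 FSH, and Birc5 and Pbk, under it on FOXOA3-mDBD FSH.

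The arrays differed in their controls. Bacterial transcripts that are added before labelling had a geometric mean of 21.4 on GFP vehicle and 22.6 on FOXOA3 FSH, but 539.4 on FOXOA3-mDBD FSH and 394.6 on GFP FSH. The 3′ to 5′ signal ratio of beta-actin was 5.15 on GFP vehicle and between 9.79 and 12.0 on the others. Of the granulosa markers, Inha, the inhibin alpha subunit, was at 4267 or more and Inhba at 10189 or more on every array. Amh was near or under the floor throughout, between 47.1 and 141, and Cyp19a1, the aromatase gene, was 35 with vehicle and 13042 with FSH alone. Nr5a1, Gata4 and Amhr2 were lowest on the mutant array, at 243, 358 and 343. Of 9 granulosa markers on the array, 5 were at least 2-fold higher on GFP FSH than on GFP vehicle and 0 lower. Against GFP FSH, 6 were lower with FOXOA3 and 8 with the mutant. The shares of all genes were 6.84% higher and 11.1% lower with FSH, 6.99% lower with FOXOA3 and 19.1% lower with the mutant. With FSH, Inha went from 9571 to 29569 and Inhba from 10189 to 25593. In these counts, a change of marker RNA per cell and a change of cell content cannot be told apart. The summed signal of the 9 granulosa markers was 31813 with vehicle, 90077 with FSH alone, 37115 with FOXOA3 and 22175 with the mutant. The 12 markers of theca, stroma and smooth muscle summed to 17952, 14449, 27329 and 15709 in the same order, with Cyp17a1 and Col1a1 under the floor on every array. Others of this list were bright and far apart between arrays: Dcn was 485 with FSH alone and 12504 with FOXOA3, Col3a1 170.0 and 7556, and Aspn was 22.4 with FSH alone and 11514 with the mutant. Ogn lay between 2562 and 12973, and Acta2 was 3711 with vehicle and 192 with FSH alone. Of 6 leukocyte markers, Ptprc, Cd68, Cd3e and Itgam were under the floor throughout, as were Pecam1, Vwf and Emcn of 5 endothelial ones. Kdr was above the floor on all 4 arrays, between 123 and 376, Tek on both FOXO1 arrays, at 173 and 212, and Csf1r on all but GFP FSH, at up to 177. The leukocyte sums lay between 306.6 and 404.4 and the endothelial sums between 306.1 and 587.2 over the 4 arrays. The part of these differences in the results was not tested. In a mixed RNA sample, fewer dividing cells and less RNA per dividing cell cannot be told apart.

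Most members were brightest with FSH and the control vector. GFP FSH was the highest of the 4 arrays for 37 of the 44 members, against 27.3% of 10407 genes above the floor on some array. Of the other 7, Mcm4, Mcm6, Rrm1 and Parpbp were highest on FOXOA3-mDBD FSH, and Tyms, Birc5 and Hmmr on FOXOA3 FSH. Among all 10407 genes, FOXOA3-mDBD FSH was the highest for 26.9% and FOXOA3 FSH for 21.8%, so that 4 of 44 members on the mutant array is below the general share. The lowest array was FOXOA3 FSH for 20 members, FOXOA3-mDBD FSH for 18, GFP vehicle for 5 and GFP FSH for 1, Mcm4. Over all 10407 genes, FOXOA3 FSH was the lowest for 13.6% and FOXOA3-mDBD FSH for 42.6%, so that the members' 18 of 44 on the mutant array is near the general share. GFP vehicle was the lowest for 20.8% of all these genes and GFP FSH for 23.0%. The median signal of the members was 969 on GFP FSH, 489 with vehicle, 378 with FOXOA3 and 389 with the mutant. The comparisons with GFP FSH all use the same array, so a value that is high or low there by chance enters each of them.

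**Figure D2:**
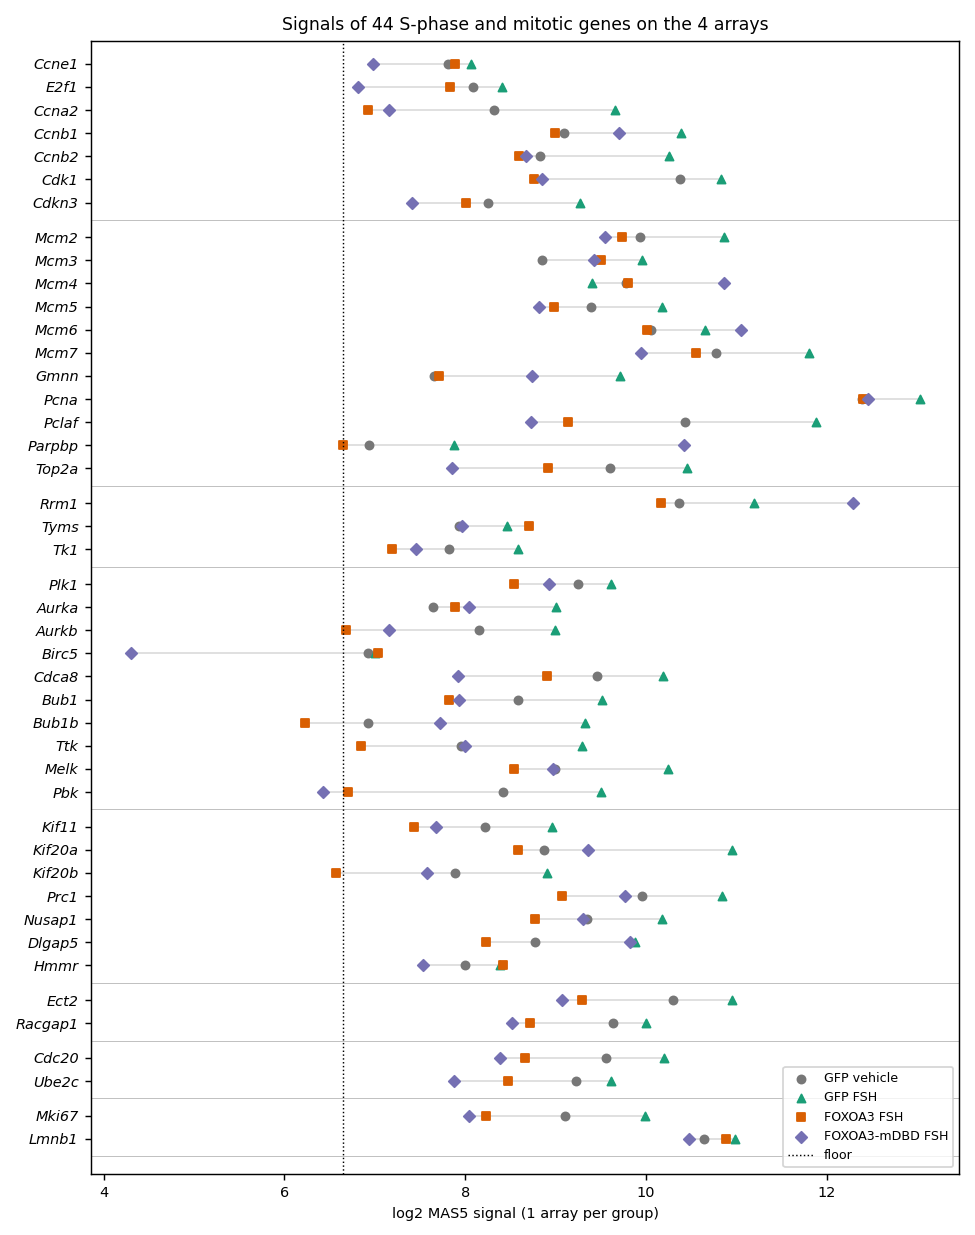
MAS5 signals of the 44 members on a log2 scale, with a row for each gene grouped by role and a symbol for each of the 4 arrays (1 array per group); the dotted line is the floor of 100.5. Triangles for GFP FSH lie farthest right in 37 rows, and the exceptions Mcm4, Mcm6, Rrm1 and Parpbp have the diamond of FOXOA3-mDBD FSH farthest right.

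The first comparison asks what FSH did under the control vector. On GFP FSH, 16 of 44 members (36.4%) were at least 2-fold higher than on GFP vehicle, where 6.84% of 9578 measured genes were, and 0 were lower, where 11.1% of all genes were. A ratio above 1 was found for 43 of the 44, and the median log2 ratio was 0.85, beside 0.00 over all genes. The other comparisons with GFP FSH ask what active FOXO1 and its DNA-binding mutant did in cells that also had FSH. On FOXOA3 FSH, 34 members (77.3%) were at least 2-fold lower than on GFP FSH, against 6.99% of 9941 genes, and 0 were higher, against 11.1%. Their median log2 ratio was -1.39, beside 0.04 over all genes. On FOXOA3-mDBD FSH, 28 members (63.6%) were lower, against 19.1% of 9748 genes, and 3 were higher, against 12.5%. There the median was -1.30, beside -0.16 over all genes. The list was chosen with earlier results of these arrays known, so its counts are a description. With a floor at the 75th percentile of all signals (542.5), the counts were 6 higher with FSH, 16 lower with FOXOA3 and 13 lower with the mutant. The same floor took the counts over all genes from 655 to 354, from 695 to 391 and from 1866 to 872. Centring each array on its median moved the all-gene median with the mutant from -0.16 to 0.02 and that of the members to -1.11, with 25 members lower. Spike levels were low on FOXOA3 FSH and high on GFP FSH, and like on GFP FSH and FOXOA3-mDBD FSH, and their part in the results was not tested.

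**Figure D3:**
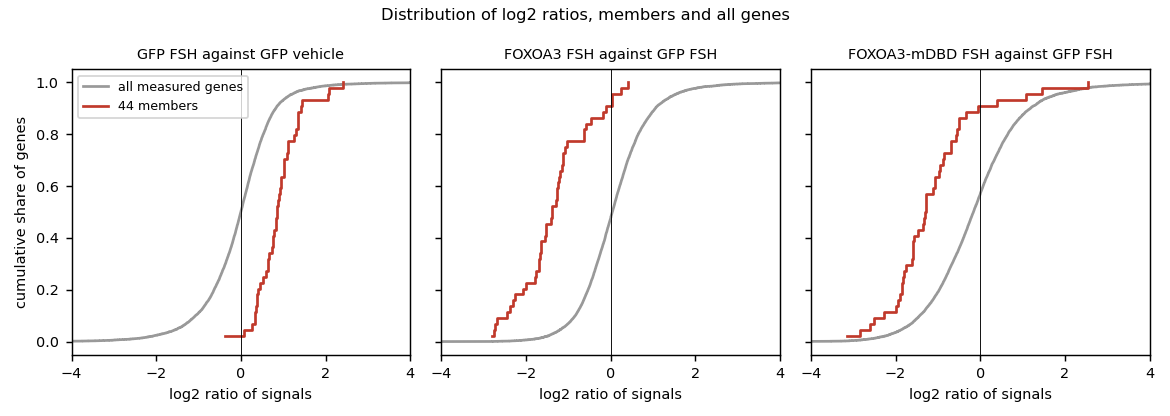
Cumulative share of genes (vertical axis) by log2 ratio of signals (horizontal axis) in 3 comparisons, for the 44 members and for all measured genes. The curve of the members lies to the right of that of all genes with FSH (medians 0.85 and 0.00) and to its left with FOXOA3 (-1.39 and 0.04) and with FOXOA3-mDBD (-1.30 and -0.16).

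From here, 4 signals in a row stand for vehicle, FSH alone, FOXOA3 and the DNA-binding mutant, in that order. The cyclins, their kinase and the entry factors differed in size of response. Ccna2, cyclin A2, which acts in S phase and early mitosis, had signals of 318, 807, 121 and 143. It was 2.53-fold higher with FSH and lay under the vehicle level on both FOXO1 arrays, by 2.62-fold on FOXOA3 FSH and 2.23-fold on FOXOA3-mDBD FSH. Cdk1, the catalytic partner of cyclins A and B, read 1329.7, 1824, 433.5 and 459.9. The 1.37-fold step with FSH was thus small beside the drop below vehicle, 3.07-fold on FOXOA3 FSH and 2.89-fold on FOXOA3-mDBD FSH. Ccnb2 stood at 453, 1217, 386 and 409, close to the vehicle level on both FOXO1 arrays. Its relative Ccnb1 read 547, 1337, 511 and 830 and stayed above vehicle with the mutant. A second Ccnb1 probe set gave 351, 1007, 272 and 339, and its log2 ratio of FOXOA3-mDBD FSH to GFP FSH was -1.57 in place of -0.69. The phosphatase Cdkn3, which acts on cyclin-dependent kinases, read 304, 618, 257 and 170.5.

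Ccne1 and E2f1, which act at entry into S phase, had another profile. For Ccne1 the signals were 224, 268, 236 and 127, and for E2f1 they were 271, 339, 227 and 112. Neither was 2-fold apart with FSH or with FOXOA3, but both were lower on FOXOA3-mDBD FSH than on GFP FSH, by 2.12-fold and 3.02-fold. With arrays centred on their median Ccne1 had a log2 ratio of -0.88 there and was no longer 2-fold lower. The lowest signals of both were thus on the mutant array, close to the floor.

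The MCM helicase, which unwinds DNA at replication origins, has subunits Mcm2 to Mcm7 that act as a ring in equal number. Their signals did not move together. Mcm7 read 1749, 3563, 1498 and 984, Mcm2 read 976, 1860.1, 852 and 747, and Mcm5 read 671, 1160.1, 505 and 452. These 3 subunits were highest on GFP FSH and lower on both FOXO1 arrays. On FOXOA3-mDBD FSH they were 3.62-fold, 2.49-fold and 2.56-fold below GFP FSH. Mcm3 read 462, 997, 727 and 685, 2.16-fold higher with FSH and within 2-fold of GFP FSH on both FOXO1 arrays. Mcm4 went another way at 879.5, 675, 895 and 1864, 2.76-fold above GFP FSH with the mutant and within 2-fold with FOXOA3. Mcm6 read 1067, 1610.2, 1033 and 2114, and was within 2-fold of GFP FSH on both arrays. Set directly against FOXOA3-mDBD FSH, FOXOA3 FSH was 2.08-fold lower for Mcm4 and 2.05-fold lower for Mcm6. Each of the 6 subunits was read by a single probe set, so there was no other reading of Mcm4 or Mcm6 to set beside these.

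**Figure D4:**
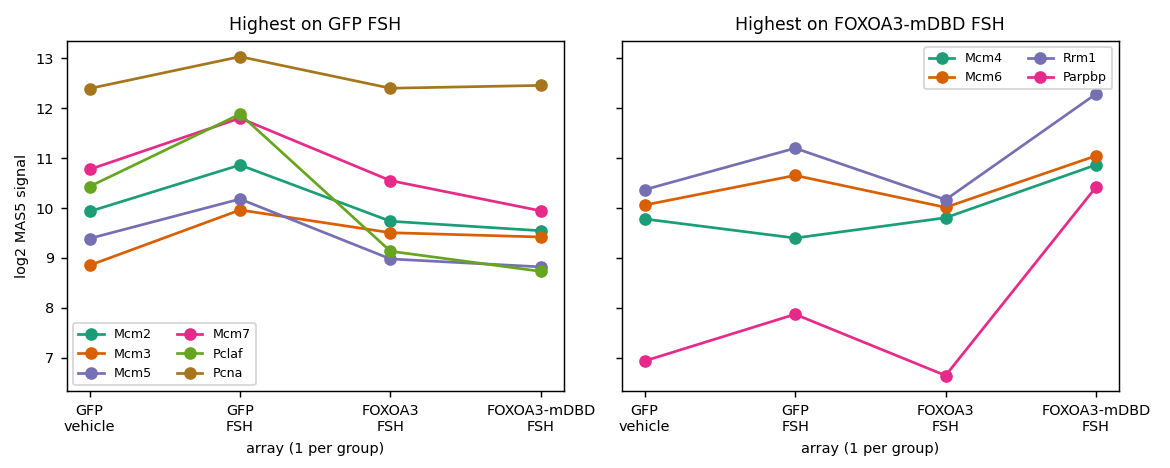
Log2 MAS5 signals (vertical axis) of replication genes on the 4 arrays (horizontal axis, 1 array per group, lines join the points of a gene). On the left are members highest on GFP FSH, such as Mcm7 at 3563, and on the right those highest on FOXOA3-mDBD FSH, such as Rrm1 at 4989 and Parpbp at 1369.

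Licensing is limited to once per cycle by geminin, Gmnn, which binds the loading factor CDT1. Gmnn read 201, 838, 209 and 426, so it was 4.17-fold higher with FSH, close to the vehicle level with FOXOA3 and 2.12-fold above it with the mutant. Its other probe set was under the floor on every array. Pcna, the sliding clamp, read 5375.5, 8363, 5398 and 5614, and stayed within 2-fold in each of the first 3 comparisons. Pclaf, which binds that clamp, read 1380, 3767.5, 562 and 425. It was 8.86-fold below GFP FSH with the mutant, and it lay 2.46-fold below vehicle with FOXOA3 and 3.25-fold with the mutant. Top2a, the topoisomerase that untangles replicated chromosomes, read 777, 1404, 482 and 231. The mutant array was the lowest, 6.07-fold below GFP FSH, where FOXOA3 FSH was 2.92-fold below it. A second Top2a probe set had the same order of these 3 arrays, at 456, 203.5 and 119. With vehicle that set read 388, so that its log2 ratio with FSH was 0.23 in place of 0.85.

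Parpbp and Rrm1 were far apart between the FOXO1 arrays. Parpbp read 123, 234, 100.2 and 1369, near the floor on all arrays but the last. With the mutant it was 5.84-fold above GFP FSH, and with FOXOA3 at least 2.33-fold below. Rrm1, which makes deoxyribonucleotides, read 1321, 2349, 1149 and 4989. It was 2.12-fold above GFP FSH with the mutant and 2.04-fold below with FOXOA3, and the FOXO1 arrays were 4.34-fold apart. The other nucleotide genes analysed were Tk1 and Tyms. Tk1, thymidine kinase, read 227, 383, 146.5 and 176. A second Tk1 probe set read 164, 374, 80.6 and 71, under the floor on both FOXO1 arrays. Its log2 ratio with FSH was 1.19 in place of 0.76. Another Tk1 set was above the floor on GFP FSH alone, at 117.5. Tyms, thymidylate synthase, stayed between 244 and 418 and was highest on FOXOA3 FSH. By their brightest probe sets, the nucleotide genes had 2 of 3 lower on FOXOA3 FSH, and 1 lower and 1 higher on FOXOA3-mDBD FSH. Among all genes, 6.99% were lower with FOXOA3, and 19.1% lower and 12.5% higher with the mutant.

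The spindle checkpoint holds anaphase back until chromosomes are attached. Its genes were grouped with mitotic kinases and the chromosomal passenger complex (Aurkb, Birc5 and Cdca8, given below), 10 members in all. Of these, 5 were at least 2-fold higher with FSH, against 6.84% of all genes. Below GFP FSH were 9 on FOXOA3 FSH (6.99% of all genes) and 7 on FOXOA3-mDBD FSH (19.1%). Bub1b read 121.5, 643, 75.1 and 212, 5.29-fold higher with FSH. On FOXOA3 FSH it was under the floor, at least 6.40-fold below GFP FSH. The checkpoint kinase Ttk read 247, 626, 115 and 256, so that the mutant array was level with vehicle and the FOXOA3 array 2.14-fold below it. Bub1 read 383, 733, 226 and 244, with both FOXO1 arrays below vehicle.

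Pbk, a kinase active in mitosis, read 341, 725.5, 104 and 86.2, and was 6.95-fold below GFP FSH on FOXOA3 FSH. With the mutant it was under the floor, at least 7.22-fold below. Melk, another kinase of dividing cells, read 509, 1211, 373 and 500.5. Its signals on vehicle and on the mutant array were within 1.02-fold of each other. Aurka, which acts at the spindle poles, read 200.2, 513, 236 and 263 and was 2.56-fold higher with FSH. Plk1, which drives several mitotic steps, had a narrower range at 606, 785, 373 and 488. Among these, Pbk lay far below vehicle on both FOXO1 arrays and Aurka slightly above it.

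The chromosomal passenger complex corrects chromosome attachments, with Aurkb as its kinase, Birc5 (survivin) and Cdca8 (borealin) as subunits. Aurkb read 283.5, 509, 103 and 143, and Cdca8 read 704, 1166, 478 and 242. Aurkb was lowest with FOXOA3, 4.94-fold below GFP FSH, whereas Cdca8 was lowest with the mutant, 4.81-fold below. Birc5 read 121, 128, 131 and 19.7, close to the floor on 3 arrays and under it on the mutant array, so that its ratios carry little.

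Spindle motors and microtubule-binding proteins build the bipolar spindle and its midzone. Kif20a, a midzone motor, read 468, 1984, 383 and 657, which was 4.24-fold higher with FSH and 5.19-fold lower with FOXOA3 than with FSH alone. Kif20b read 236, 479, 94.7 and 190.3, and Kif11, which pushes the spindle poles apart, read 297, 498, 173 and 205. All 3 motors were lowest on FOXOA3 FSH. Prc1, the midzone crosslinker, read 990.1, 1839, 536.5 and 871, and Nusap1 read 653, 1157, 437 and 632. Both again had their lowest signal with FOXOA3, and on the mutant array they were close to vehicle. Dlgap5, a spindle assembly factor, read 437, 941, 301 and 906, level with GFP FSH on the mutant array and 3.13-fold below it with FOXOA3. Hmmr, a centrosome protein also known as a hyaluronan receptor, stayed between 186 and 343. In this group 6 of 7 members were lower on FOXOA3 FSH (6.99% of all genes) and 4 of 7 on FOXOA3-mDBD FSH (19.1%). The median log2 ratios of the group were -1.65 and -1.08.

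Cytokinesis and mitotic exit genes were at least 2-fold below GFP FSH on both FOXO1 arrays, 4 of 4 members. Among all genes, 6.99% were lower with FOXOA3 and 19.1% with the mutant. Ect2, the exchange factor that activates RhoA at the division plane, read 1259, 1985, 627 and 537. Racgap1, its partner in the centralspindlin complex, read 795, 1020.3, 422 and 368. On FOXOA3-mDBD FSH they were 2.35-fold and 2.16-fold below vehicle. Cdc20, which activates the anaphase-promoting ubiquitin ligase, read 752, 1171, 404 and 335, and Ube2c, the ubiquitin-conjugating enzyme of that ligase, read 598, 785, 356 and 234. A second Cdc20 probe set read 790, 866, 397 and 374.5, with a log2 ratio of 0.13 with FSH in place of 0.64. All 4 genes were highest with FSH alone and below vehicle on both FOXO1 arrays. Between the FOXO1 arrays they were within 2-fold, and the order of these arrays turned for Ect2 and Racgap1 when arrays were centred on their median.

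Mki67, the antigen Ki-67 used to count cycling cells, read 551, 1017, 299.8 and 263. Both FOXO1 arrays were below vehicle, by 1.84-fold with FOXOA3 and 2.10-fold with the mutant. Lamin B1, Lmnb1, which lines the nucleus, stayed between 1429 and 2028. A dimmer Lmnb1 probe set read 166 with vehicle and 97.6 with FSH alone, the latter under the floor. Its log2 ratio of -0.73, a bound set by the floor, was opposite in sign to 0.34 for the brightest, and so near background it carries little. In all, 6 members, namely Mcm6, Pcna, Tyms, Birc5, Hmmr and Lmnb1, were within 2-fold in each of the first 3 comparisons.

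**Figure D5:**
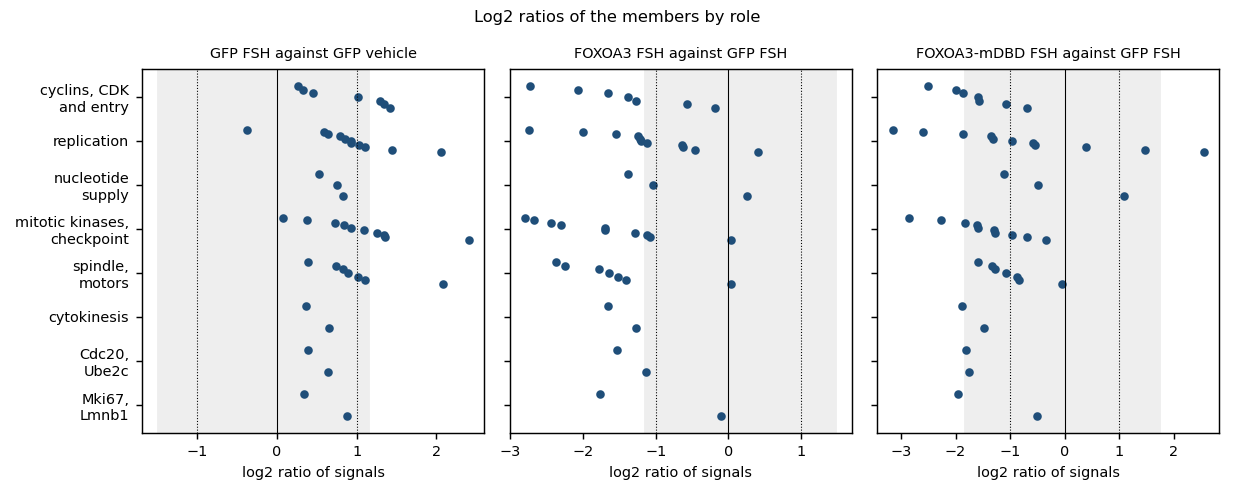
Log2 ratios of signals (horizontal axis) of the 44 members by role (vertical axis, 1 point per gene) in 3 comparisons; dotted lines mark 2-fold and the grey band runs from the 5th to the 95th percentile of all measured genes. With FOXOA3, 9 of 10 genes of the mitotic kinase, checkpoint and passenger complex group lie left of the line, and 6 of 7 spindle genes. Of all measured genes 6.99% do. Replication genes reach from -3.15 to 2.55 with the mutant.

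FOXOA3 and its mutant were also set directly against each other, which does not involve the GFP FSH array. On FOXOA3 FSH, 8 of 44 members (18.2%) were at least 2-fold lower than on FOXOA3-mDBD FSH, where 9.24% of 10092 genes were, and 2 (4.55%) were higher, where 19.0% were. The lower members were Parpbp by at least 13.6-fold, Rrm1 by 4.34-fold, Dlgap5 by 3.01-fold, Ttk by 2.22-fold, Bub1b by at least 2.11-fold, Mcm4, Mcm6 and Gmnn. The higher members were Top2a by 2.08-fold and E2f1 by 2.02-fold. Both left the count of higher members under quantile normalization or centring of the arrays on their median, where it was 0. The median log2 ratio of the members was -0.09, beside 0.21 over all genes. For 34 members the FOXO1 arrays were within 2-fold, which in single arrays does not show that they are alike.

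Against GFP vehicle, FOXOA3 FSH gives cells with FSH and the virus for active FOXO1 beside cells with neither, on arrays with like spike levels. There 8 members (18.2%) were at least 2-fold lower, against 4.01% of 9904 genes, and 0 were higher, against 5.32%. The 8 were Pbk by 3.27-fold, Cdk1, Aurkb by 2.75-fold, Ccna2, Pclaf, Kif20b by at least 2.35-fold, Ttk and Ect2 by 2.01-fold. The median log2 ratio of the 44 members was -0.43, beside 0.01 over all genes. On FOXOA3-mDBD FSH, 12 members (27.3%) were lower than on GFP vehicle, against 22.5% of 9861 genes, a share near that of all genes. Higher were 5 members (11.4%), against 13.0%, with Parpbp 11.2-fold, Rrm1 3.78-fold, Gmnn 2.12-fold, Mcm4 2.12-fold and Dlgap5 2.08-fold above vehicle. Centring the arrays on their median left 6 in place of 12 lower, and a fold of 1.5 gave 18 lower on FOXOA3 FSH.

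Other genes of the pathway were described from 4 lists. Of 37 other replication genes on the array, of which 33 or 34 were above the floor in a comparison, 7 were at least 2-fold higher and 0 lower with FSH, 13 lower and 0 higher on FOXOA3 FSH, and 17 lower and 3 higher on FOXOA3-mDBD FSH. Over all genes 6.84% were higher and 11.1% lower with FSH, 6.99% lower and 11.1% higher with FOXOA3, and 19.1% lower and 12.5% higher with the mutant. Cdt1, the loading factor that geminin binds, read 452, 1351, 371 and 329, and Pole2, a subunit of polymerase epsilon, read 203, 608, 229 and 106. Exo1, a DNA end-trimming nuclease, read 108, 356.5, 89.7 and 146, and Chaf1a, a histone chaperone subunit, read 437, 633.5, 210 and 122. All 4 were highest with FSH alone. Fen1, the nuclease that trims lagging-strand flaps, read 385, 808, 309.5 and 2686, which was 2.61-fold below GFP FSH with FOXOA3 and 3.33-fold above it with the mutant. Lig1, the ligase of the lagging strand, read 1437, 1160.2, 1749.9 and 2723. Of 42 other mitosis genes, 39 of them above the floor, 8 were higher and 0 lower with FSH, 17 were lower and 0 higher on FOXOA3 FSH, and 14 were lower and 2 higher on FOXOA3-mDBD FSH. Ncaph, a condensin subunit, read 373, 839, 206 and 258, and Tacc3, a spindle protein, read 329.7, 741, 157 and 311. The motor Kif2c read 194, 471.5, 161 and 119.5, and Stmn1, which destabilises microtubules, read 9196.5, 6467, 5055 and 1451.5, so that both were lowest with the mutant. The higher pair with the mutant were the motor Kif15, at 765, 847, 703 and 4154, and the checkpoint protein Bub3, at 3150.4, 4427, 3224 and 12769. Fen1, Lig1, Kif15 and Bub3 were thus brightest on the mutant array, as Rrm1 and Parpbp were. The mutant array was the highest for 26.9% of 10407 genes, and these context genes are named because their ratios there were among the largest of their lists.

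The factors that control the waves gave small counts in both directions. Over all genes 6.84% were higher and 11.1% lower with FSH, 11.1% higher and 6.99% lower with FOXOA3, and 12.5% higher and 19.1% lower with the mutant. Of 26 E2F, MuvB and FOXM1 regulators on the array, 24 or 25 of them above the floor, 0 were higher and 2 lower with FSH, 2 higher and 3 lower on FOXOA3 FSH, and 2 higher and 3 lower on FOXOA3-mDBD FSH. Foxm1, an activator of mitotic genes, read 279, 221, 189 and 134, within 2-fold of GFP FSH on every array. Nfya, the NF-Y subunit, read 1799, 601, 1792 and 584, so that it was high on GFP vehicle and FOXOA3 FSH, the arrays with low spike levels, whose part in this was not tested. Rbl1, a relative of the retinoblastoma protein, read 672, 1277.5, 509.8 and 659, and E2f2 read 157, 258, 143 and 108.5. E2f7, a repressive E2F, read 143, 218, 57.9 and 103.5, and Tfdp2, an E2F partner, read 278, 317, 676 and 441. Of these 4, Tfdp2 alone was higher with FOXOA3 than with FSH alone. Higher with the mutant were E2f5, a repressive E2F, at 616, 1102, 1165 and 3705, and the MuvB subunit Lin9, at 317, 559, 339.6 and 1198. Among 17 regulators of early cycle on the array, 13 of them above the floor, 2 were higher and 3 lower with FSH, 4 higher and 2 lower on FOXOA3 FSH, and 1 higher and 3 lower on FOXOA3-mDBD FSH. Cyclin D2, Ccnd2, read 2878, 6379, 2831 and 1132, highest with FSH alone and lowest with the mutant. Cyclin E2, Ccne2, read 283, 627, 206 and 253, and the inhibitor Cdkn2d read 407, 47.1, 560 and 252.5, under the floor with FSH alone. The inhibitor p27, Cdkn1b, read 3451.5, 5547, 6392 and 7866, within 2-fold of GFP FSH on the other FSH arrays, and p21, Cdkn1a, read 3904, 1436, 5657 and 1721. Cdkn1a was thus 3.94-fold above GFP FSH with FOXOA3 and within 2-fold of it with the mutant.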

How the data were processed

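The 4 arrays were Rat Genome 230 2.0 arrays, per the series' design text. The authors' deposited values are intensity values on a linear scale, which the submitters' processing notes credit to MAS5; its settings are not stated in the labels. MAS5 subtracts mismatch signals, is noisy for dim probe sets and, by scaling each array to a common mean, hides differences in total RNA. Platform annotation gave 1 symbol for 20826 of 31099 probe sets after 57 controls were left out. All 60 probe sets of the members had a gene ID with the same current symbol. The brightest probe set was used per gene. Ratios were log2 differences after flooring. The members and lists were chosen with earlier results of these data known. Values are given on all arrays for members at least 2-fold apart in any of the first 3 comparisons, and for the 2 largest context genes per list and direction (in the comparisons with GFP FSH that involve FOXO1), plus Ccnd2, Cdkn1b and Foxm1. Alternatives were quantile normalization, median centring, floors at the 25th and 75th percentile, the mean of probe sets and a fold of 1.5. With 1 array per group, the number of arrays limits the precision. Steps were tested on simulated data, with Python 3.11.15, numpy and pandas.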

Additional observations from a re-analysis of the deposited data

Results flagged for a closer look

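A pair of members went opposite ways with the FOXO1 vectors, each by at least 2-fold against the same GFP FSH array. Parpbp had a log2 ratio of -1.22, a bound set by the floor, with FOXOA3, and 2.55 with the mutant. Rrm1 had -1.03 and 1.09. With 1 array per group the difference between the vectors was not tested.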

How the results depend on the processing

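Under quantile normalization, median centring, the floor at the 25th percentile, the mean of probe sets and the floor at the 75th percentile, the median log2 ratios of the members kept their sign in all 6 comparisons. The cause of the changes below was not tested, with exceptions that follow by construction. A higher floor shrinks ratios, and so does the mean of probe sets where a gene's other sets lie at or under the floor. With the floor at the 75th percentile, 6 members were higher with FSH, 16 lower on FOXOA3 FSH than on GFP FSH, and 13 lower on FOXOA3-mDBD FSH, with a median of -0.66 there. FOXOA3 FSH against FOXOA3-mDBD FSH then had 0 higher and 4 lower, FOXOA3 FSH against GFP vehicle 3 lower, and FOXOA3-mDBD FSH against GFP vehicle 3 higher and 3 lower. Quantile normalization and median centring each left 0 members higher on FOXOA3 FSH than on FOXOA3-mDBD FSH, and the mean of probe sets left 1. Centring left 6 lower on FOXOA3-mDBD FSH than on GFP vehicle. At a fold of 1.5, 33 were higher with FSH, 9 higher on FOXOA3 FSH than on FOXOA3-mDBD FSH, 2 higher and 18 lower on FOXOA3 FSH than on GFP vehicle, and 8 higher on FOXOA3-mDBD FSH than on GFP vehicle. The other 84 counts and medians stayed within 1.5-fold.

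Of single members' ratios in the first 3 comparisons, 591 stayed within 1.5-fold and 37 moved by more, of which 28 were under the floor at the 75th percentile. With the mean of probe sets, Cdc20 and Kif11 had log2 ratios to GFP FSH of -0.57 and -0.76 on FOXOA3 FSH. On FOXOA3-mDBD FSH they had -0.62 and -0.64, and Racgap1 had -0.80. These genes thus left those 2-fold counts. Racgap1 left the FOXOA3 count too, with log2 ratios of -1.27 and -0.13 for its 2 probe sets. So did Ttk with FSH, at 1.34 and 0.53, and with the mutant, at -1.29 and -0.53. Ccnb1, at -0.69 and -1.57, joined the members lower with the mutant. The other Kif11 set and some of the other Cdc20 sets were under the floor on every array. The other Racgap1 set was at 110 or less. Under median centring Ect2 was at -1.71 with FOXOA3 and -1.69 with the mutant, and Racgap1 at -1.32 and -1.28, which turns their order. With a floor at the 25th percentile Bub1b was at -3.10 with FOXOA3. Birc5, with a floor at the 25th percentile, reached -2.22 on FOXOA3-mDBD FSH. Over all genes, median centring moved the share of higher among called genes from 39.6% to 52.2% for FOXOA3-mDBD FSH against GFP FSH, from 36.6% to 53.4% for FOXOA3-mDBD FSH against GFP vehicle, and from 67.2% to 48.3% for FOXOA3 FSH against FOXOA3-mDBD FSH. No paired analysis was possible because each group had 1 array.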
